A study of Homo sapiens with 6 samples.

Results

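The genes described here are 10 ephrins and Eph receptors: the receptors EPHA2, EPHA3, EPHA4, EPHA7, EPHB2 and EPHB4 and the ligands EFNA1, EFNA5, EFNB1 and EFNB2. They were taken by symbol from the annotation of the array, through probes that carry the symbol of 1 gene, and 9 of the 10 were found among the 18417 genes that such probes measured. EPHB2 was not analysed here. Each of the 9 was read by 1 probe, a set of oligonucleotides spread along the transcript. RNA came from U373MG, a long-established line of human glioblastoma, and was hybridized to 6 arrays of the type Human Gene 1.0 ST. Cells were exposed for 24 hours to ET-770 at 4.83 nM, to ET-770-DR at 1.70 nM, or to renieramycin M (RM) at 3.10 nM. ET-770-DR is the pyridinecarbonyl derivative of ET-770. All 3 are tetrahydroisoquinoline alkaloids of marine origin or derived from one. Each was given at its own IC50, which the paper determined with a treatment longer than 24 hours. Each compound had 1 array and 1 DMSO array of its own, in 3 independent experiments, so there were 3 compound arrays and 3 DMSO arrays of 1 cell line.

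Eph receptors form the largest family of receptor tyrosine kinases, and their ligands, the ephrins, are themselves held in the membrane, so that signals pass where cells touch. Ephrins of class A hang on a lipid anchor and bind mainly EphA receptors, whereas ephrins of class B span the membrane and bind mainly EphB receptors. EPHA4 binds ligands of both classes. The receptor sends a forward signal into its own cell and the ephrin a reverse signal into the opposite cell, and both act on the actin cytoskeleton. In the nervous system they guide axons and set boundaries between cell groups, and in glioblastoma EPHA2 and EPHA3 are known as receptors of tumour-propagating cells.

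Among the 9 genes, EPHA3 and EFNB2 fell with all 3 compounds, none rose as a shared response, and 7 did not pass the test. The signal of EPHA3 averaged 0.101 of that with DMSO (geometric mean of 3 pairs), and that of EFNB2 averaged 0.736. Outside the 9, EFNA4 rose. In such bulk RNA, fewer cells that express a gene and less RNA per cell cannot be told apart. The sequences just upstream of these 3 genes are shown because theirs are the shared changes of the family that passed the test. Each run holds the 100 bases before the RefSeq start in build GRCh38.p14, 5′ to 3′ on the strand of the gene, at chr3:89107521-89107620 (plus strand) for EPHA3, chr13:106535663-106535762 (minus strand) for EFNB2 and chr1:155063640-155063739 (plus strand) for EFNA4. Capitals mark 3 motifs searched on both strands, which do not overlap in these runs: the GC box (GGGCGG or CCGCCC), the CCAAT box (CCAAT or ATTGG) and the TATA box (TATAAA or TTTATA).
EPHA3: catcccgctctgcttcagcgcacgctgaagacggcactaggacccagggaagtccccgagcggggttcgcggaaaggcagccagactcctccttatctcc
EFNB2: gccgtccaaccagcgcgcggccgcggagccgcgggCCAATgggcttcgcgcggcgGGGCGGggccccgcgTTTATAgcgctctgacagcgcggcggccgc
EFNA4: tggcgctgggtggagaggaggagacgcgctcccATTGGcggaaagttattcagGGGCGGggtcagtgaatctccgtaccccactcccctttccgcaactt
The window of EPHA3 held none of these letters, that of EFNA4 held 1 GC box and 1 CCAAT box, and that of EFNB2 held 1 of each motif. Of 35116 such windows in the table, 31.3% held a GC box, 18.1% a CCAAT box and 4.99% a TATA box. The GC content was 64% for EPHA3, 80% for EFNB2 and 61% for EFNA4, against a median of 60% over all windows. EFNB2 had 20 CpG dinucleotides in its run, EPHA3 8 and EFNA4 7.

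EPHA3, a receptor for class A ephrins, changed most among the 9 genes. Its RMA signal on the log2 scale was 7.57, 6.73 and 8.23 with ET-770, ET-770-DR and RM, against 11.07, 10.50 and 10.87 on their own DMSO arrays. The highest compound array thus lay more than 2 log2 units under the lowest DMSO array. Relative to DMSO the signal was 0.0888 for ET-770, 0.0732 for ET-770-DR, and 0.160 for RM. In the shared response, tested with limma over all genes and blocked by experiment, the log2 signal of EPHA3 fell by 3.30 (moderated standard error 0.20, 95% interval -3.75 to -2.86, adjusted p = 8.4e-06, n = 3 pairs). Only 3 of all 18417 genes had a larger mean fall. Among the falls of a single compound it stood at place 8 for ET-770, 5 for ET-770-DR, and 17 for RM. After quantile normalization across the 6 arrays its 3 changes were -3.57, -3.87 and -2.62.

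EFNB2, a transmembrane ligand with known parts in vessel growth and glioma invasion, was lower with each compound by a smaller amount. Its log2 signal was 10.05, 9.12 and 9.46 with ET-770, ET-770-DR and RM, against 10.32, 9.70 and 9.93 on their own DMSO arrays. As deposited, the compound arrays overlapped the DMSO arrays of other experiments. The fall showed within each pair, to 0.827, 0.670 and 0.720 of the DMSO signal. After quantile normalization the DMSO signals of EFNB2 were 9.98, 10.04 and 10.03 in the same order, a span of 0.06. Its changes were then -0.38, -0.72 and -0.47. Each fall was larger than that span, so on this scale every compound array lay under all DMSO arrays. The mean change of the deposited signals was -0.44 (standard error 0.13, interval -0.72 to -0.16, adjusted p = 0.029, n = 3 pairs). The call was lost without the ET-770 pair (change -0.53, adjusted p = 0.13) and without the ET-770-DR pair (change -0.37, adjusted p = 0.14). It was also lost in a fit without the experiment as a block (adjusted p = 1).

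These 2 falls and 0 rises stand beside 11.2% of all genes that fell and 13.1% that rose in the same fit. By single compound, where 1 array per arm allows no p-value, EPHA3 was the 1 gene of the 9 lowered more than 3-fold, and it was so with each compound, beside 2.15% of all genes for ET-770, 2.12% for ET-770-DR, and 1.36% for RM. None of the 9 was raised more than 3-fold, beside 0.233% of all genes for ET-770, 0.51% for ET-770-DR, and 0.0434% for RM.

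**Figure D1:**
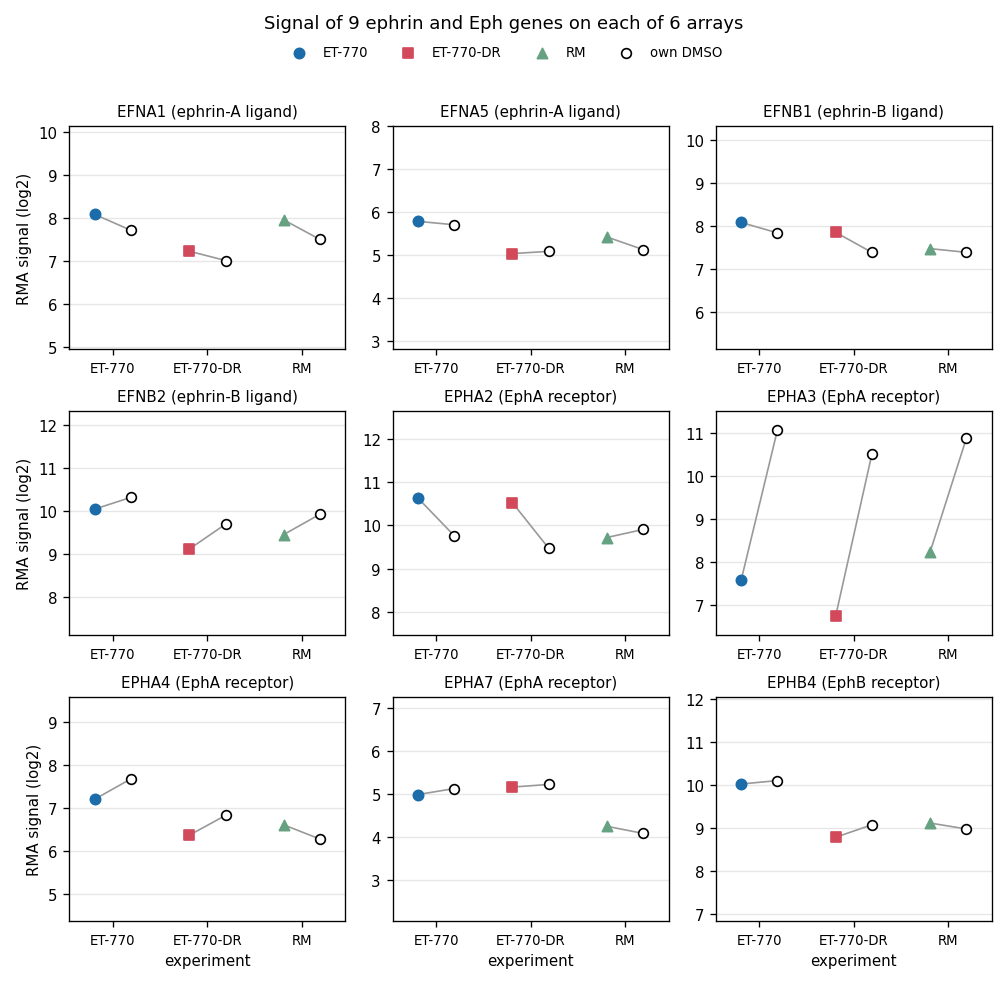
RMA signal on the log2 scale (vertical axis, the same height of 5.2 log2 units in each panel) of the 9 genes on each array, by experiment (horizontal axis). Filled symbols are the compound arrays, open circles the DMSO arrays of the same experiment, lines join a pair, and each point is 1 array. EPHA3 lies between 6.73 and 8.23 on the compound arrays and between 10.50 and 11.07 on the DMSO arrays.

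Among the receptors, EPHA2, a class A receptor that is abundant in many gliomas and drives migration when no ligand is bound, was high with 2 compounds and not with the other. Its log2 signal was 10.64, 10.53 and 9.72 with ET-770, ET-770-DR and RM, against 9.76, 9.47 and 9.91 on their own DMSO arrays. The ET-770 and ET-770-DR arrays lay above all 3 DMSO arrays, and the RM array lay among them. Relative to DMSO this was 1.84-fold for ET-770, 2.09-fold for ET-770-DR, and 0.879-fold for RM. The mean change was 0.58 (standard error 0.22, interval 0.10 to 1.07, adjusted p = 0.082), which did not pass. The largest and the smallest of the 3 changes of EPHA2 lay 1.25 log2 units apart, and 1.40% of all genes had a wider range. For all genes the median range was 0.39 and the 90th percentile 0.80. Without the RM pair the mean change of EPHA2 was 0.97 (adjusted p = 4.2e-07, n = 2 pairs, with a spread estimated almost wholly from other genes). It was 0.44 without the ET-770 pair and 0.34 without the ET-770-DR pair (adjusted p = 0.25 and 0.33). The compounds were given at different doses and in different experiments on 1 array each, so no difference between them was tested.

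EPHA4, the receptor that binds both classes of ephrin, had log2 signals of 7.21, 6.37 and 6.61 with ET-770, ET-770-DR and RM, against 7.68, 6.83 and 6.28 on their own DMSO arrays. It was lower by nearly the same amount with ET-770 and ET-770-DR, to 0.720 and 0.727 of DMSO, and at 1.26-fold with RM. The mean change was -0.20 (standard error 0.17, adjusted p = 0.50). Without the RM pair it was -0.47 (adjusted p = 0.0067, n = 2 pairs), and it was -0.065 without the ET-770 pair and -0.072 without the ET-770-DR pair (adjusted p = 0.97 and 0.87). EPHA7, a class A receptor of the developing brain, had signals of 4.98, 5.16 and 4.24 with ET-770, ET-770-DR and RM, against 5.12, 5.22 and 4.08 with DMSO. EPHB4, the receptor of EFNB2 in the vessel wall, had signals of 10.03, 8.79 and 9.12 with ET-770, ET-770-DR and RM, against 10.11, 9.08 and 8.98 with DMSO. Compound and DMSO arrays overlapped for all 3 of these receptors. The mean changes of EPHA7 and EPHB4 were -0.01 and -0.08, with intervals of -0.30 to 0.27 and -0.37 to 0.22 (adjusted p = 0.97 and 0.79).

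The ligands other than EFNB2 did not pass the test. EFNA1, the main partner of EPHA2, had log2 signals of 8.08, 7.23 and 7.95 with ET-770, ET-770-DR and RM, against 7.71, 7.01 and 7.50 with DMSO, and was higher than its own DMSO array in 3 of 3 pairs. Its mean change was 0.35 (standard error 0.12, interval 0.07 to 0.62, adjusted p = 0.071). EFNB1, a transmembrane ligand on the X chromosome, had signals of 8.09, 7.86 and 7.48 with ET-770, ET-770-DR and RM, against 7.85, 7.39 and 7.39 with DMSO, and was likewise higher in 3 of 3 pairs. Its mean change was 0.27 (interval -0.03 to 0.56, adjusted p = 0.19). EFNA5, a class A ligand that repels growing axons, had signals of 5.79, 5.04 and 5.42 with ET-770, ET-770-DR and RM, against 5.71, 5.09 and 5.13 with DMSO, and a mean change of 0.11 (interval -0.18 to 0.39, adjusted p = 0.67). The mean signals of EFNA5 (5.36) and EPHA7 (4.80) lay under 6.03, the 0.25 quantile of all genes. The deposited table gives no detection call, so whether these probes were above background is unknown.

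In the number of genes that kept one direction, the 9 were 2 lower and 2 higher with all 3 compounds and 5 of mixed direction. Over all genes 20.6% were lower with all 3, 29.6% higher and 49.8% mixed. EPHA4, EPHA7 and EPHB4 were lower with ET-770 and ET-770-DR and higher with RM, a pattern that 16.3% of all genes had. Of 12 other ephrin and Eph genes, 6 had it too (EPHA1, EPHA5, EPHB1, EPHB6, EFNA2 and EFNA3). The pattern counts signs only, and some of these changes were near 0. That of EFNA2 was -0.0125 with ET-770, and that of EFNA3 was 0.014 with RM. The mean signals of EPHA5 (4.65) and EPHB1 (5.635) lay under 6.03, the 0.25 quantile of all genes. The reverse pattern held for 1 of the 9, 0 of the 12 and 7.86% of all genes. The median change of all genes was 0.02 for ET-770, -0.03 for ET-770-DR, and 0.12 for RM. Quantile normalization moved these medians by 0.04, 0.04 and 0.08. It turned no sign among the changes of the 9 genes. Under both scalings 5, 6 and 3 of the 9 were lower with ET-770, ET-770-DR and RM. As deposited, 8583, 9754 and 6687 of all 18417 genes were lower, in the same order. The signs of the 12 other genes under quantile normalization are not given here.

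**Figure D2:**
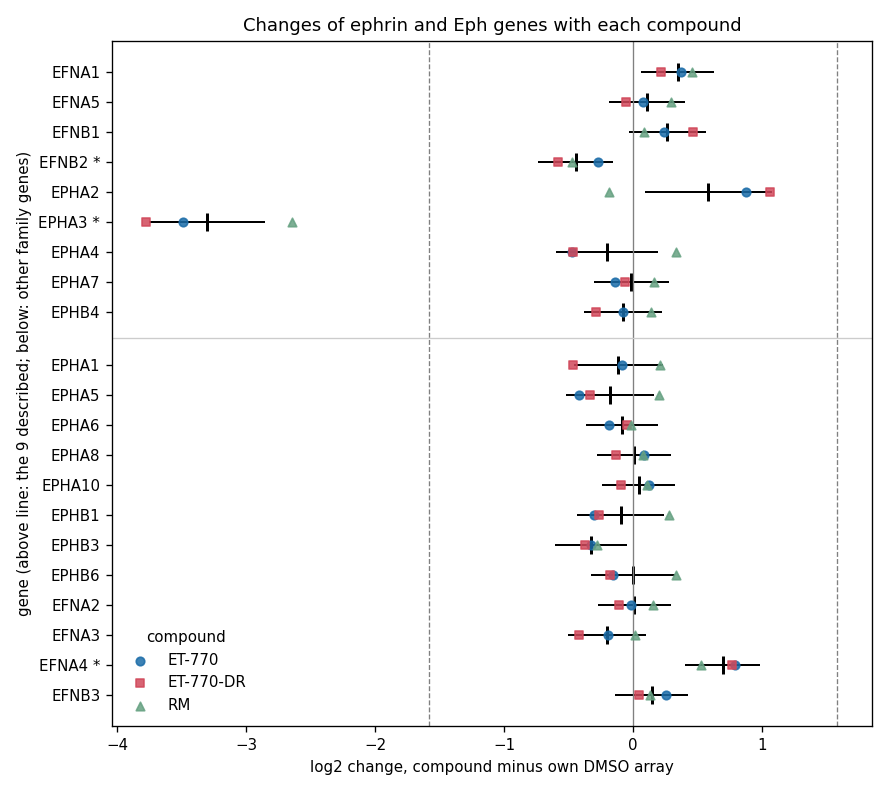
Log2 change from the own DMSO array (horizontal axis) for the 9 genes (above the line) and 12 other ephrin and Eph genes (below it). Coloured symbols are single compounds (1 array each against its DMSO array), the black tick is the mean of 3 pairs with its 95% interval from limma, dashed lines mark 3-fold, and asterisks mark an adjusted p under 0.05. EPHA3 alone lies past the dashed lines, with a mean of -3.30, and EPHA2 has the widest range of its 3 changes, 1.25.

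All 12 other ephrin and Eph genes were measured, and 1 rose, 0 fell and 11 did not pass, beside the same 13.1% of all genes that rose and 11.2% that fell. None was past 3-fold with any compound. The gene that rose was EFNA4, a lipid-anchored class A ligand. Its log2 signal was 10.43, 9.56 and 8.62 with ET-770, ET-770-DR and RM, against 9.64, 8.79 and 8.10 on their own DMSO arrays. The groups overlapped across experiments, since the DMSO array of the ET-770 experiment was above 2 of the compound arrays, but each pair moved the same way, by 0.79, 0.77 and 0.53. The log2 signal of EFNA4 rose by 0.70 (standard error 0.12, adjusted p = 0.0031, n = 3 pairs). In the RefSeq gene order EFNA4 is followed by EFNA3 and EFNA1, and a read-through gene, EFNA4-EFNA3, is annotated there too. The 3 changes of EFNA3 were -0.20, -0.42 and 0.01, and those of EFNA1 were 0.37, 0.22 and 0.46, in the order ET-770, ET-770-DR and RM. The 3 neighbouring class A ligands thus had mean changes of 0.70, -0.20 and 0.35, of which only that of EFNA4 passed. Whether the EFNA4 probe also reads the read-through transcript was not tested. The median change of the 12 genes was -0.04, and that of the 9 was -0.01, against 0.03 for all genes. With RM, 10 of the 12 and 6 of the 9 were higher than DMSO. So were 11493 of all 18417 genes, whose median change with RM was 0.12.

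On the DMSO arrays alone the same genes differed between experiments. As deposited, the 3 DMSO signals of EPHA4 spanned 1.40 log2 units, those of EPHA7 1.14 and those of EPHB4 1.12, and those of the other 6 between 0.44 and 0.70. After quantile normalization EPHA7 spanned 0.96, EPHA4 0.73, EPHB4 0.67 and EPHA2 0.60. EFNB2 then spanned 0.06, EFNB1 0.20, EFNA5 0.21, EPHA3 0.22 and EFNA1 0.44. The 2 genes that fell thus had narrow spans on this scale, as did EFNB1 and EFNA5, which did not pass the test. EPHA4, EPHA7 and EPHB4 each had the lowest DMSO signal in the RM experiment (6.28, 4.08 and 8.98). After quantile normalization the RM experiment again held the lowest DMSO signal of each (6.56, 4.42 and 9.09). It was also the only experiment in which these 3 genes were higher with the compound. Each change is taken from that same DMSO array, so a low DMSO signal and a higher change are not independent. EFNA1, EFNA5 and EFNB1 were higher with RM too. Under neither scaling did the RM experiment hold the lowest DMSO signal of these ligands. With 1 DMSO array per experiment, cells, hybridization and experiment cannot be told apart in these spans.

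The genes differ widely in span. The span of a gene in GRCh38.p14 is 375 kb for EPHA3, 294 kb for EFNA5, 180 kb for EPHA7 and 156 kb for EPHA4. It is 45.9 kb for EFNB2, 31.7 kb for EPHA2, 25.0 kb for EPHB4, 13.1 kb for EFNB1, 7.02 kb for EFNA1 and 5.81 kb for EFNA4. Of 1408 genes over 100 kb with a mean signal above the median of all genes (7.58), 71.9% fell, and EPHA3 was the only ephrin or Eph gene among them. Of 1711 genes over 100 kb with a signal at or below that median, 27.8% fell. These held EFNA5, EPHA4, EPHA7, EPHA5, EPHA6 and EPHB1, and none of the 6 passed the test. Of 7798 genes of 100 kb or less with a signal above the median, 5.90% fell and 25.9% rose. In that class were EFNA1, EFNB1, EFNB2, EPHA2, EPHB4, EPHB3, EFNA2, EFNA3 and EFNA4. Spearman's correlation of span and mean change was -0.48 over the 21 ephrin and Eph genes and -0.40 over 18388 genes with a span, given as a description across genes of the same arrays. The bounds of 100 kb and the median signal were chosen after the values were seen, a probe's signal is not a transcript level, and the part of span or signal in any single change was not tested.

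**Figure D3:**
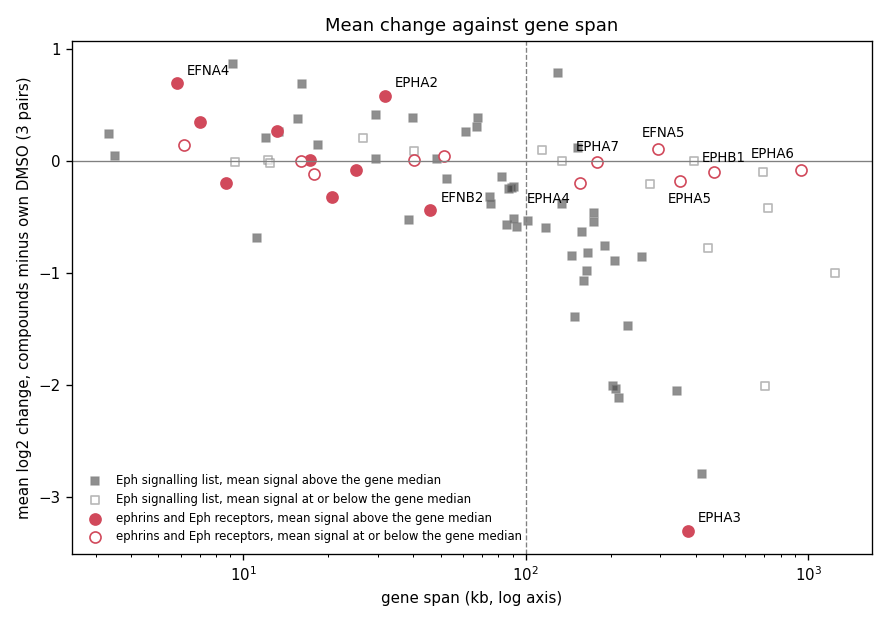
Mean log2 change over 3 pairs (vertical axis) against gene span in kb (horizontal log axis). Circles are 21 ephrin and Eph genes, squares 63 genes of Eph signalling, and open symbols have a mean signal at or below the median of all genes (7.58). EPHA3 is the 1 filled circle right of the dashed line at 100 kb, at a change of -3.30, and the 6 open circles there lie near 0.

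Many genes that act with the receptors and ligands fell. Of a list of 68 genes of forward and reverse signalling, 63 were measured, and 29 fell, 5 rose and 29 did not pass. That is 46.0% that fell and 7.94% that rose, beside 11.2% and 13.1% of all genes. The median change of the list was -0.25, against 0.03 for all genes. The list has long genes, with a median span of 92.8 kb, against 24.5 kb for all genes. Of its 31 genes over 100 kb, 23 fell and 1 rose, and of its 32 genes of 100 kb or less, 6 fell and 4 rose. The shares of all genes that follow are split by signal as well as span, which these counts of the list are not. Among all genes over 100 kb, 71.9% of those above the median signal fell and 0.639% rose. At or below that median these shares were 27.8% and 0.468%. Among all genes of 100 kb or less, 5.90% above the median signal fell and 25.9% rose. At or below it these shares were 1.51% and 4.97%. Spearman's correlation of span and change was -0.70 over the 63 genes. The part of span in the count was not tested.

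The counts by role, here and below, stand beside the same 11.2% of all genes that fell and 13.1% that rose. Median spans were 111 kb for adaptors and cytoplasmic kinases and 191 kb for exchange factors and GTPase-activating proteins. They were 59.9 kb for GTPases and effectors, 82.9 kb for phosphatases and 94.5 kb for partners of ephrin-B or of the receptors. The part of span in these counts was not tested. By role, 8 of 18 adaptors and cytoplasmic kinases fell and 2 rose. FYN, a kinase of the SRC family that relays both signals, had log2 signals of 7.79, 7.59 and 7.95 with ET-770, ET-770-DR and RM, against 10.46, 9.52 and 9.71 with DMSO, without overlap, and fell by 2.12 (standard error 0.18, adjusted p = 4.1e-05). PTK2, the focal adhesion kinase, had signals of 8.33, 8.31 and 8.56 with ET-770, ET-770-DR and RM, against 10.63, 10.29 and 10.46 with DMSO, and fell by 2.06 (standard error 0.13, adjusted p = 1.0e-05). ANKS1A, an adaptor that holds Eph receptors back from degradation, had signals of 7.27, 6.33 and 7.33 with ET-770, ET-770-DR and RM, against 9.60, 8.81 and 8.63 with DMSO. It fell by 2.04 (standard error 0.21, adjusted p = 0.00014), and its 3 changes were -2.33, -2.49 and -1.30. ABL2, an actin-binding kinase, rose by 0.78 (standard error 0.15, adjusted p = 0.0042); its span is 130 kb, and it was the 1 gene of the list over 100 kb that rose.

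Of 15 exchange factors and GTPase-activating proteins, 7 fell and 1 rose. SIPA1L1, a GTPase-activating protein for Rap that binds EPHA4, had log2 signals of 7.43, 7.04 and 6.97 with ET-770, ET-770-DR and RM, against 10.81, 9.84 and 9.17 with DMSO. It fell by 2.80 (standard error 0.20, adjusted p = 1.8e-05), the largest fall of the list. GIT1, a scaffold that brings exchange factors to ephrin-B, rose by 0.68 (standard error 0.12, adjusted p = 0.0026), with 3 changes of 0.67, 0.71 and 0.67. Of 12 GTPases and effectors, 5 fell and 0 rose, and of 6 phosphatases, 2 fell and 0 rose. Of 12 partners of ephrin-B or of the receptors, 7 fell and 2 rose. DVL2, a dishevelled protein that binds ephrin-B1 in frog embryos, rose by 0.87 (standard error 0.14, adjusted p = 0.0015), and its changes were 1.00, 1.02 and 0.58. SDCBP, the PDZ protein syntenin that binds the tail of ephrin-B, rose by 0.41 (standard error 0.12, adjusted p = 0.032), with log2 signals of 13.04, 12.77 and 12.30 with ET-770, ET-770-DR and RM, against 12.69, 12.33 and 11.86 with DMSO. SDCBP lost its call without the ET-770 pair (adjusted p = 0.24) and without the ET-770-DR pair (adjusted p = 0.11).

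**Figure D4:**
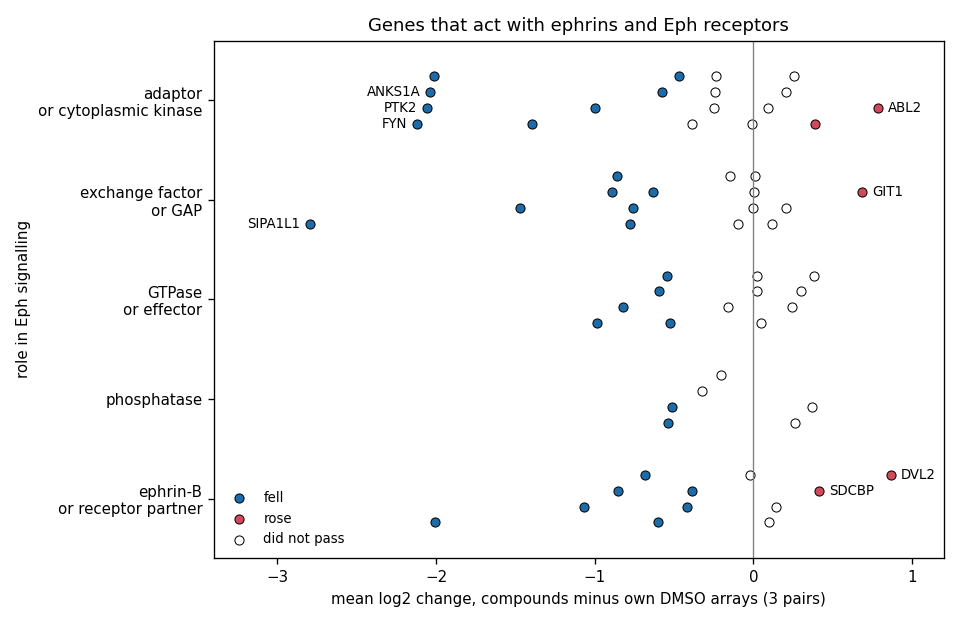
Mean log2 change over 3 pairs (horizontal axis) of 63 genes of Eph signalling, by role (vertical axis; the height within a role only separates points). Blue points fell and red points rose at an adjusted p under 0.05 in limma, open points did not pass, and the 4 largest falls and rises are named. SIPA1L1 lies lowest at -2.80 and DVL2 highest at 0.87.

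The genes outside the family whose 3 changes were nearest to those of EPHA3, by Euclidean distance over the 3 log2 changes, were SBF2 (distance 0.44), CD180 (0.51) and PRKCA (0.65). SBF2, a myotubularin-related protein, changed by -3.51, -3.34 and -2.69 with ET-770, ET-770-DR and RM. CD180, a surface protein of B cells, changed by -2.99, -3.88 and -2.64. PRKCA, protein kinase C alpha, changed by -3.20, -3.19 and -2.61. SBF2 and PRKCA span 526 and 508 kb, whereas CD180 spans 17.2 kb. Nearest to EFNB2 were SPPL2A, an intramembrane protease, GET1, which helps to insert proteins into the membrane, and SMAD6, an inhibitor of BMP signalling, at distances of 0.05, 0.05 and 0.06.

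Of 8 markers of glial and glioma cells, 5 (VIM, NES, S100B, CD44 and TNC) had a mean signal above the median of all genes, whereas GFAP, AQP4 and OLIG2 did not. Of the 8, S100B, CD44 and TNC fell (changes of -1.04, -0.43 and -0.78, adjusted p = 0.00082, 0.043 and 0.0014) and 0 rose, beside 11.2% of all genes that fell. Of 4 markers of neurons 0, of 4 of endothelium 0 and of 3 of oligodendrocytes 0 were above that median, and of 4 of microglia and leukocytes only CD68, a lysosomal protein, was. Among these markers of other cells CD68 rose by 0.58 (adjusted p = 0.0062), MBP, a myelin protein, fell by 0.43 (adjusted p = 0.028), and the others did not pass. The part of these markers in the results above was not tested.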

How the data were processed

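The authors hybridized RNA of U373MG cells to 6 arrays and normalized the scans by robust multiarray average (RMA) in the Expression Console software, and the deposited values are RMA signals on the log2 scale for 33297 probes. Of these, 19460 name a single gene in the platform's annotation and were averaged to 18417 genes, 1754 name several and 12083 none. No array repeats another. Median signals of all probes were 7.30 and 7.28 on the compound and DMSO arrays of ET-770, 6.65 and 6.68 of ET-770-DR and 6.77 and 6.63 of RM. The number of arrays limits the precision.

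The shared response was tested two-sided in limma 3.58.1 (R 4.3.3) on treatment, blocked by experiment, with Benjamini-Hochberg adjustment over all genes and a threshold of 0.05. Intervals are 95% intervals of the moderated fit. The compounds serve as replicates of each other, so differences between them count as spread. The labels tie each DMSO array to its compound. Deviations from the group means correlated at 0.83, 0.69 and 0.82 within a pair and at -0.68 to 0.24 between experiments. The deviations of the 3 arrays of a group cancel for each gene, so high values within pairs in part force low values between experiments. Single compounds were counted past 3-fold, the threshold of the methods, without a test. The fit was tested on simulated data.

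The genes and lists were chosen with earlier results of these data known. Named were the 10 genes, other family genes that passed the test or 3-fold, the 4 largest falls and rises of the signalling list, and the 3 genes nearest to each called gene of the 10. Further family genes were named after their values were seen. Promoter sequences and gene spans come from RefSeq tables of GRCh38.p14, in which all 21 family genes measured had a span and 19 a promoter window. Alternatives were no block, quantile normalization, a trended robust fit, leaving out genes under the 0.25 quantile of signal, the brightest probe per gene, leaving out each experiment, pooled DMSO arrays and a 2-fold threshold. Figures were drawn with matplotlib 3.10.9 in Python 3.11.15.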

Additional observations from a re-analysis of the deposited data

Results flagged for a closer look

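For 5 of the 9 genes the direction differed between compounds, which was not tested, since each compound has 1 array at a dose of its own. The gap between the largest and the smallest of the 3 log2 changes was 1.25 for EPHA2 (0.88 for ET-770, 1.06 for ET-770-DR, and -0.19 for RM). It was 0.81 for EPHA4 (-0.47, -0.46 and 0.33), 0.43 for EPHB4 (-0.08, -0.29 and 0.14), 0.34 for EFNA5 (0.08, -0.05 and 0.29) and 0.30 for EPHA7 (-0.14, -0.06 and 0.17), in the same order of compounds. Of these 5 genes, only EPHA2 and EPHA4 had gaps above 0.80, the 90th percentile of all genes. EPHA3, which was lower with each compound, had a gap of 1.13. Over all genes, 49.8% had mixed directions.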

How the results depend on the processing

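EPHA3 kept its fall in all 8 alternative fits (change -3.63 to -3.07, adjusted p at most 0.00011), and EFNA4 kept its rise in 7 of 8. Without the experiment as a block, which sets aside the pairing, 1 of the 9 genes fell, 0 of the other family genes rose, 6 of the signalling list fell and 0 rose, and 369 of all genes fell and 26 rose. Without the genes under the 0.25 quantile of signal, 1 of the 9 rose (EFNA1, adjusted p = 0.049), beside 2661 of the 13812 genes left. With quantile normalization 1 other family gene fell (EPHB3, change -0.40, adjusted p = 0.034), beside 2429 of all 18417 genes. At a 2-fold threshold 1 of the 9 was raised with ET-770-DR (EPHA2, 2.09-fold). With that compound 584 of all 18417 genes had a larger rise than EPHA2. Leaving out each pair in turn, 1 to 3 of the 9 fell (EPHA4 beside EPHA3 and EFNB2 without RM) and 0 to 2 rose (EPHA2, and EFNB1 at an adjusted p of 0.044, both without RM). In these fits 0 to 2 other family genes fell (EPHA5 and EPHB3 without RM), and 3 to 7 of the list rose. Over all genes 1505 to 2635 fell and 1200 to 3506 rose, against 2065 and 2406 in the main fit. Both counts were highest without RM. The change of EPHA7 then ran from -0.10 to 0.0524, with 0.0524 without ET-770 and 0.01 without ET-770-DR, and that of EPHB4 from -0.18 to 0.0293, with 0.0293 without ET-770-DR. The cause of these shifts was not tested. Fits on 2 pairs keep 1 degree of freedom per gene and rest on the spread of other genes.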
